A study of Mus musculus with 3 samples.

Results

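Giant coding sequences (CDSs) give a ribosome many minutes of travel, so they show how far the ribosome front had receded after a short block of initiation. The genes described here are those whose longest transcript with 5′ UTR, CDS and 3′ UTR rows has a CDS of at least 9000 nt. They number 131 of 20823 genes and hold 7735 coding segments, the exon pieces for which reads were counted. No read count entered this choice. The CDS lengths ran from 9000 nt to 106173 nt, with a median of 11544 nt, and a gene held between 1 and 346 segments, with a median of 63. Each segment was placed by the distance of its midpoint from the start codon, which was possible for 7393 segments. At the border, Ep400 and Trank1, each 9000 nt, were taken in with 1332 and 1037 WT reads, and Cenpf (8994 nt, 209 WT reads) and Chd7 (8961 nt, 236 WT reads) were left out.

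The 3 libraries are ribosome profiles of primary cortical neurons cultured from the embryonic cortex of CD-1 mice, with no genotype given. No drug was given to WT neurons, Chx stands for 2 min of cycloheximide, and Harr for 2 min of harringtonine with a cycloheximide pulse after it. All 3 were rinsed and lysed in buffer with 100 μg per ml cycloheximide, and each library pooled 3 dishes of 150 mm. There is 1 library per treatment, so no difference has a replicate check and no test was made. Unless called widened, every interval is a 95% interval of counting error alone. Such an interval would be too narrow where PCR copies of the same molecule remained after duplicate reads were removed.

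Ribosome profiling reads the mRNA pieces that ribosomes protect. Harringtonine stops ribosomes at initiation and leaves elongating ones free to move on, so the start of a CDS empties first and the emptied part grows with time. Cycloheximide stops elongating ribosomes where they are. Where a gene also makes a shorter transcript that begins inside the long CDS, ribosomes on it start at its own start codon. Giant neuronal proteins include motors, cytoskeletal linkers, active zone scaffolds, ubiquitin ligases, adhesion receptors and Reelin.

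In 5 giant genes, Dmd, Utrn, Syne1, Syne2 and Prune2, read density rose steeply where an annotated shorter transcript joins the long CDS, far from the annotated start. Because the results below turn on these inner start codons, the first coding bases of the shorter transcripts are printed here from the GENCODE M21 transcripts (mm10), 5′ to 3′ on the coding strand, with the start codon in capitals. The shorter Syne1 transcript joins at segment 90 (chr10:5194473-5194667, minus strand), and its first 12 bases come from an exon of its own. That of Utrn joins at segment 51 (chr10:12538041-12538213, minus strand) after 144 bases of its own, and that of Syne2 at segment 99 (chr12:76087751-76087913, plus strand) after 20. That of Dmd joins at segment 63 (chrX:85053971-85054032, plus strand) after 20 bases of its own, and that of Prune2 starts within segment 10 (chr19:17168263-17168342, plus strand). All 5 keep the reading frame of the long CDS.
Syne1: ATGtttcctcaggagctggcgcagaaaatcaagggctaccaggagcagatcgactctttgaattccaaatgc
Utrn: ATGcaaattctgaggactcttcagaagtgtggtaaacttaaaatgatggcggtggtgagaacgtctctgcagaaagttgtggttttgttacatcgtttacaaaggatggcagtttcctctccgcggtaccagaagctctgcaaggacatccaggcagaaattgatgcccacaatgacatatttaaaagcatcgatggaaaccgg
Syne2: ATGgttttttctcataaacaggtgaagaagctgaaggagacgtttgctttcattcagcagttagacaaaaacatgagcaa
Dmd: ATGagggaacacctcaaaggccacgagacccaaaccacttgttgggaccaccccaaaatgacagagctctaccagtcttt
Prune2: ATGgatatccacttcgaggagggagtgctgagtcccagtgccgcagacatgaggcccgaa

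Giant CDSs took 1.38% of all CDS reads in WT (Wilson 95% interval 1.38 to 1.39), 1.54% in Chx (1.53 to 1.54) and 2.71% in Harr (2.70 to 2.73), of 16673167 (WT), 20212101 (Chx) and 3774674 (Harr) CDS reads. The 5 neuronal markers summed to 3778 reads per kb of CDS per 1000000 CDS reads in WT, the 4 astrocyte markers to 212, the 4 oligodendrocyte markers to 16.8 with Mog and Mobp at 0, and the 4 microglial markers to 7.36. In Chx the same sums were 3472, 186, 19.0 and 6.59, and in Harr 2906, 103, 9.06 and 5.82. In such pooled cells a lower level can mean fewer cells of a type, less RNA per cell or fewer ribosomes per mRNA, which these sums cannot tell apart. Harr levels also went with CDS length. From Chx to Harr, genes with a CDS up to 1499 nt had a median log2 change of −0.48, and giant genes 0.85. Of the neuronal markers only Map2 rose, from 668 to 1368, while Tubb3 fell from 1167 to 517. What lowered the other marker levels in Harr was not tested. Of the giant segments, 2177 had 0 reads in all 3 libraries, 222 shared at least 10% of their 25-base words with another gene's transcripts, and 127 overlapped another gene.

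The giant genes ranged from heavily read neuronal proteins to genes with hardly a footprint. Their median level was 1.73 reads per kb per 1000000 CDS reads in WT, 1.99 in Chx and 2.79 in Harr, against 3.46, 3.59 and 3.43 over all 20823 genes. In WT, 28 of the 131 genes exceeded 10 on this scale and 75 exceeded 1. At the low end, 17 had no more than the floor of 3 reads. Muc4, Muc5ac and Muc5b, which encode mucins, Hrnr, Xirp2 and 4932415D10Rik had 0 reads in all 3 libraries.

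Reln, which encodes the secreted protein Reelin that guides cortical layering, had the most reads, with 27675 in WT, 33783 in Chx and 8641 in Harr. Its level was 159.8 in WT, 160.9 in Chx and 220.4 in Harr, and in WT it stood above 94.2% of all genes. Map1a, a microtubule-associated protein of mature neurons, followed at 109.8, 121.8 and 234.6. Ank2, ankyrin-B, which ties membrane proteins to the spectrin skeleton, had levels of 81.7, 74.9 and 144.4. Lrp1, an endocytic receptor, had levels of 67.5, 80.2 and 132.4. Dync1h1, the heavy chain of cytoplasmic dynein, had levels of 62.2, 88.1 and 111.9. In each of these 5 the Harr level per CDS read was the highest of the 3. Per 1000000 aligned reads this held for Map1a, Ank2 and Lrp1, whereas Reln had 85.3 in Harr, 91.1 in Chx and 88.2 in WT, and Dync1h1 had 43.3, 49.8 and 34.3.

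Grouped by role, active zone scaffolds, cytoplasmic dynein heavy chains and ubiquitin ligases had higher median levels than the genes of cilia and muscle. The lists hold 100 of the 131 genes. The 2 cytoplasmic dynein heavy chains had a median WT level of 32.8 but lay far apart, Dync1h1 at 62.2 and Dync2h1 at 3.47. Median WT levels were 22.3 for the 2 active zone scaffolds Bsn and Pclo and 20.7 for the 8 ubiquitin ligases, deubiquitinases and co-chaperones. They were 7.83 for the 2 centrosome, Golgi and anchoring scaffolds, 7.84 for the 6 neuronal exchange factors, channels and signalling proteins, 7.36 for the 3 PIKK family members and 6.76 for the 2 BEACH proteins. They were 5.24 for the 15 giant receptors and adhesion molecules, 5.18 for the 5 lipid bridge proteins, 3.59 for the 11 chromatin and transcription genes, 2.65 for the 11 cytoskeletal linkers and nesprins, and 2.52 for Mdn1, a ribosome assembly factor. The 9 secreted matrix proteins had a median of 0.758, with Reln far above the rest, the 7 muscle and calcium release genes 0.191, and the 16 genes of axonemal dyneins and cilia 0.0807. Ttn, the giant spring of muscle, had 66 WT reads over 106173 nt of CDS.

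Per CDS read, every giant gene with enough reads had a whole-CDS ratio of Harr to Chx above 1, while per aligned read 78 of 93 did. Per 1000000 CDS reads, the log2 ratio was above 0 in all 93 genes with at least 100 CDS reads, with a median of 0.85 and a lowest value of 0.00 in Lama5. In 28 of the 93 (30.1%) the Harr level was at least 2-fold higher, against 4.63% of the 11459 genes of all lengths with as many reads. In the next class, genes with a CDS from 6000 up to 9000 nt, the share was 24.4% of 213 and the median 0.71. Against WT the median was 0.98. The order of the ratios does not depend on the scale, which shifts all of them alike. The median of all 11459 genes was −0.05 per CDS read and −0.60 per aligned read. Per aligned read the giant median was 0.30, and 5 of the 93 giant genes were at least 2-fold higher, against 0.559% of all genes.

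The highest ratios were in Macf1, a linker of actin and microtubules, at 2.17, from 2981 Harr, 3544 Chx and 3838 WT reads, and in its relative Dst at 1.79, from 1025, 1586 and 1663. Bod1l, a protector of replication forks, followed at 1.66, Ttn at 1.62 and Plec, plectin, at 1.62. With WT as the reference the same 5 stood at 1.78, 1.45, 1.27, 1.11 and 1.18. The lowest were Lama5, a laminin chain, at 0.00, Dmd, dystrophin, at 0.05, Ryr2, an intracellular calcium release channel, at 0.09, Prune2 at 0.34 and Dync1h1 at 0.34. With WT as the reference these were 0.41, −0.01, 0.46, 0.02 and 0.85, so Dmd and Prune2 were near 0 against WT as well.

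By role, the number of genes at least 2-fold higher in Harr than in Chx was 6 of 13 for receptors and adhesion molecules, 5 of 10 for chromatin and transcription, 4 of 9 for cytoskeletal linkers, 2 of 8 for matrix proteins, 2 of 5 for muscle genes, 2 of 2 for cilia and 1 of 2 for active zone scaffolds. It was 0 of 8 for ubiquitin ligases, 0 of 5 for lipid bridge proteins, 0 of 6 for exchange factors and signalling proteins, 0 of 3 for PIKK members, and 0 of 2 each for dynein heavy chains, centrosome and Golgi scaffolds and BEACH proteins, and Mdn1 stood at 0.42. No member was 2-fold lower. These counts are per CDS read, where 28 of all 93 giant genes (30.1%) were at least 2-fold higher. Per aligned read only 5 of the 93 were.

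Along the CDS, Harr reads were scarce for about the first 1000 nt and then rose to a plateau. For each distance, Harr reads were set against those expected from the gene's own ratio of Harr to Chx beyond 2400 nt, so that 1 means the gene's far level. This relative level was 0.309 (0.286 to 0.333) in the first 300 nt, 0.264 from 300 to 600 nt and 0.365 from 600 to 900 nt. It was 0.627 (0.597 to 0.659) from 900 to 1200 nt, 0.801 to 1500 nt, 0.914 to 1800 nt and 0.977 to 2100 nt. Beyond 2100 nt it stayed between 0.933 and 1.06 out to 40000 nt. Segments that begin within 60 nt of the start codon were left out of the curve. Those 135 segments held 1615 Harr and 8400 Chx reads, a ratio of 0.192, against 0.109 in the placed segments of the first 300 nt.

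**Figure D1:**
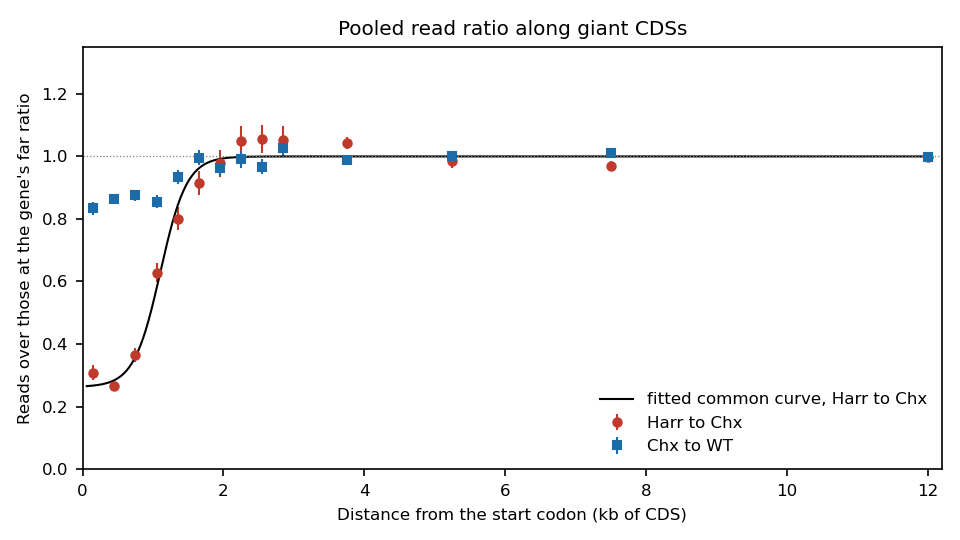
Relative level of Harr to Chx (circles) and Chx to WT (squares) reads by distance from the start codon (kb of CDS), pooled over giant genes, each gene scaled to its own part beyond 2400 nt. Points are bins with 95% counting intervals, the line is the fitted common curve, and the Harr points climb from 0.264 at 300 to 600 nt to about 1 beyond 2100 nt while Chx to WT stays between 0.834 and 1.03.

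A curve fitted to 4973 segments of 111 genes crossed the middle of its rise at 1106 nt (1075 to 1137) and had a floor of 0.263. Over 120 s this distance equals 3.07 codons per second, if ribosomes moved for the whole treatment. With WT in place of Chx the middle lay at 1165 nt (1136 to 1196). Pooled over 105 genes, the near part (up to 1200 nt) held 4382 Harr and 33459 Chx reads and the far part (beyond 2400 nt) 47743 and 143960, a near level of 0.395 (0.382 to 0.408) relative to far. Chx to WT, a comparison without harringtonine, gave 0.854 (0.839 to 0.870). The near part was thus also thinner in Chx than in WT, by far less.

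Single genes were then set against this common curve in their near part. A departure is the ratio of near Harr reads to those expected from the gene's Chx reads, its own far ratio and the curve fitted without that gene. It could be computed for 42 genes. A gene was called where the departure was at least 2-fold and its counting interval excluded 1. Of the 42 genes, 21 lay above the curve and 21 below it, 26 of them within 1.5-fold, and 4 (9.52%) were called, against 14.4% of the 97 genes with a CDS from 6000 up to 9000 nt. Genes of that class were set against the curve of the giant genes, not against a curve of their own. A curve fitted to that class had its middle at 1214 nt (1195 to 1233), so the shares were not measured alike. Smg1, Htt and Map1a were called high and Wdfy3 low. With WT as the reference, Wdfy3 and Map1a were called among 41 genes, and Smg1 and Htt were not.

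**Figure D2:**
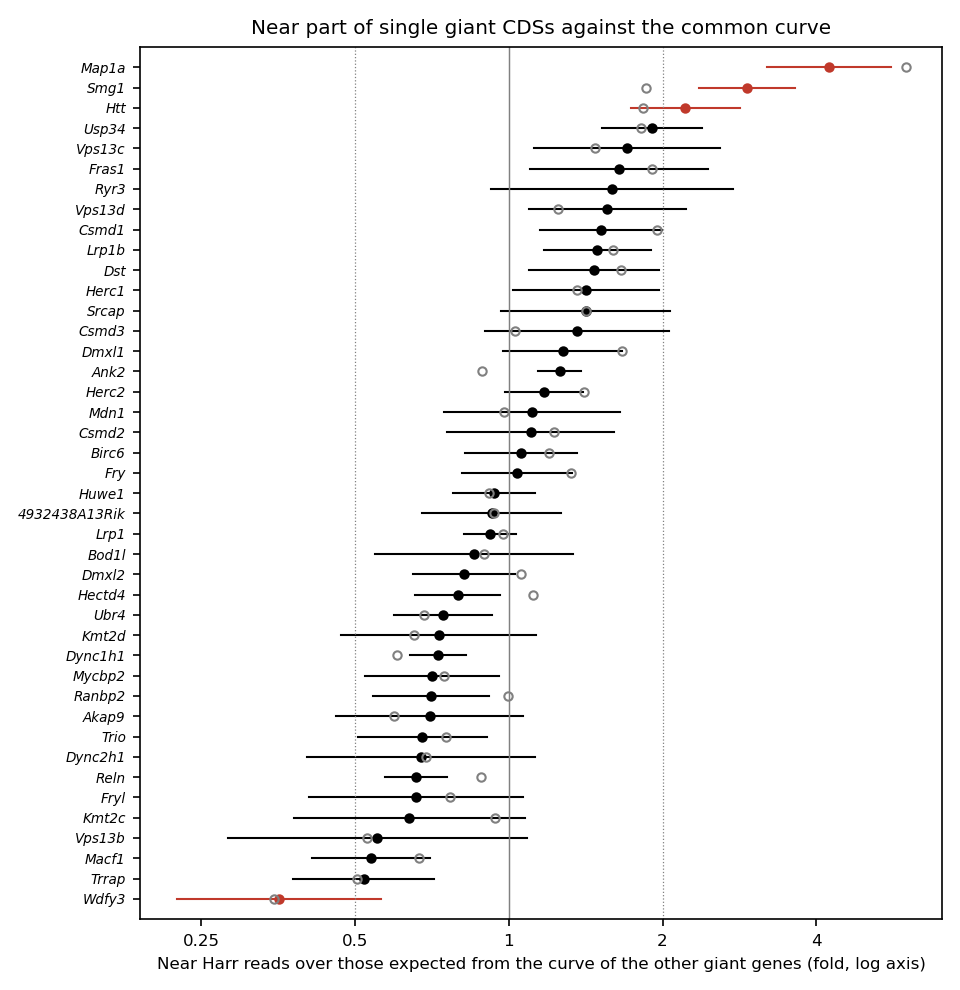
Near departure of each of 42 giant genes (horizontal axis, Harr reads over those expected from the common curve, log axis) with 95% counting intervals. Filled points use Chx as the reference, red marks the 4 called genes, open grey circles use WT, and Ryr3 has no WT value; Wdfy3 lies at the low end and Map1a, Smg1 and Htt at the high end.

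Wdfy3, a scaffold for selective autophagy, was the most emptied. Its near part held 19 Harr, 520 Chx and 399 WT reads, where the curve expects 54.5 in Harr, a departure of 0.355-fold (0.224 to 0.563). The scarcity ran through the whole near part. Segments 2, 3 and 4 had 3, 1 and 0 Harr reads beside 125, 73 and 105 Chx reads and 120, 57 and 77 WT reads. Segment 8, from 1123 nt, had 33 Harr and 194 Chx reads, and segment 10, from 1693 nt, 29 and 95. The value was 0.347-fold against WT and 0.370-fold without the near segment with the most reads. The last 150 bases of the empty segment 4 (chr5:101957384-101957545, minus strand, 162 nt) read as follows on the coding strand.
Wdfy3 segment 4: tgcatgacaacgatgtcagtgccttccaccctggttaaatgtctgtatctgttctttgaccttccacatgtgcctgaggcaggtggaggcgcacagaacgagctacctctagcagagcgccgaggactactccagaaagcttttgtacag

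Next lowest, and not called, were Trrap at 0.520-fold (0.379 to 0.714), Macf1 at 0.536-fold, Vps13b at 0.553-fold and Kmt2c at 0.639-fold. Trrap, a scaffold of histone acetyltransferase complexes and a PIKK relative without kinase activity, had 42 near Harr reads against 81.2 expected. Its segment 7 held 2 Harr reads beside 128 in Chx and 73 in WT, and segment 12, from 1036 nt, still held 1 beside 32 and 27. Macf1 had 67 against 125.4 expected, and Vps13b, a lipid bridge protein of the Golgi, 9 against 16.7. Kmt2c, a histone methyltransferase, had 18 against 28.5, and its interval reached 1.08.

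Map1a had the highest departure, 4.23-fold (3.20 to 5.60), from 87 near Harr reads against 20.2 expected. The value rests on short segments before the 8104-nt segment 5, which holds most of the CDS and could not be placed. Segment 4, of 141 nt, held 59 Harr, 39 Chx and 22 WT reads, while segment 3 held 20, 104 and 86. With intervals widened by the spread between its segments, Map1a's ran from 0.321 to 55.8 and included 1.

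In Smg1, a kinase of nonsense-mediated mRNA decay, the departure was 2.93-fold (2.36 to 3.63), from 147 near Harr reads against 49.8 expected. Segment 2, from 86 nt, held 93 of them beside 159 Chx and 168 WT reads, and segments 4, 6 and 7 held 13, 12 and 3 beside 69, 71 and 34 Chx reads. Without segment 2 the departure was 1.47-fold (1.08 to 2.00), and against WT 1.86-fold. The high value of Smg1 thus lay mostly within the first 250 nt.

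In Htt, huntingtin, the segment at the start codon, which does not enter the departure, held 16 Harr, 178 Chx and 93 WT reads over 203 nt, a ratio of Harr to Chx of 0.0899. The rest of its near part held 102 Harr, 354 Chx and 366 WT reads, against 45.7 Harr reads expected, a departure of 2.22-fold (1.73 to 2.84). Segments 2 to 9 had ratios of Harr to Chx between 0.154 and 0.440, where the far ratio was 0.326. Without the near segment with the most reads the departure was 2.29-fold, and with WT as the reference 1.84-fold, beneath 2. Relative to far, Chx to WT was 0.680 in the near part of Htt and 0.552 in that of Smg1, lower than the pooled 0.854.

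Usp34, a deubiquitinase, resembled Htt but was not called, at 1.91-fold (1.53 to 2.39), with 129 near Harr reads against 67.3 expected. Its segments 3, 5, 6 and 7 had ratios of 0.275, 0.333, 0.345 and 0.219 beside a far ratio of 0.378. Vps13c, another lipid bridge protein, stood at 1.70-fold (1.12 to 2.59), from 29 Harr reads against 16.8.

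**Figure D3:**
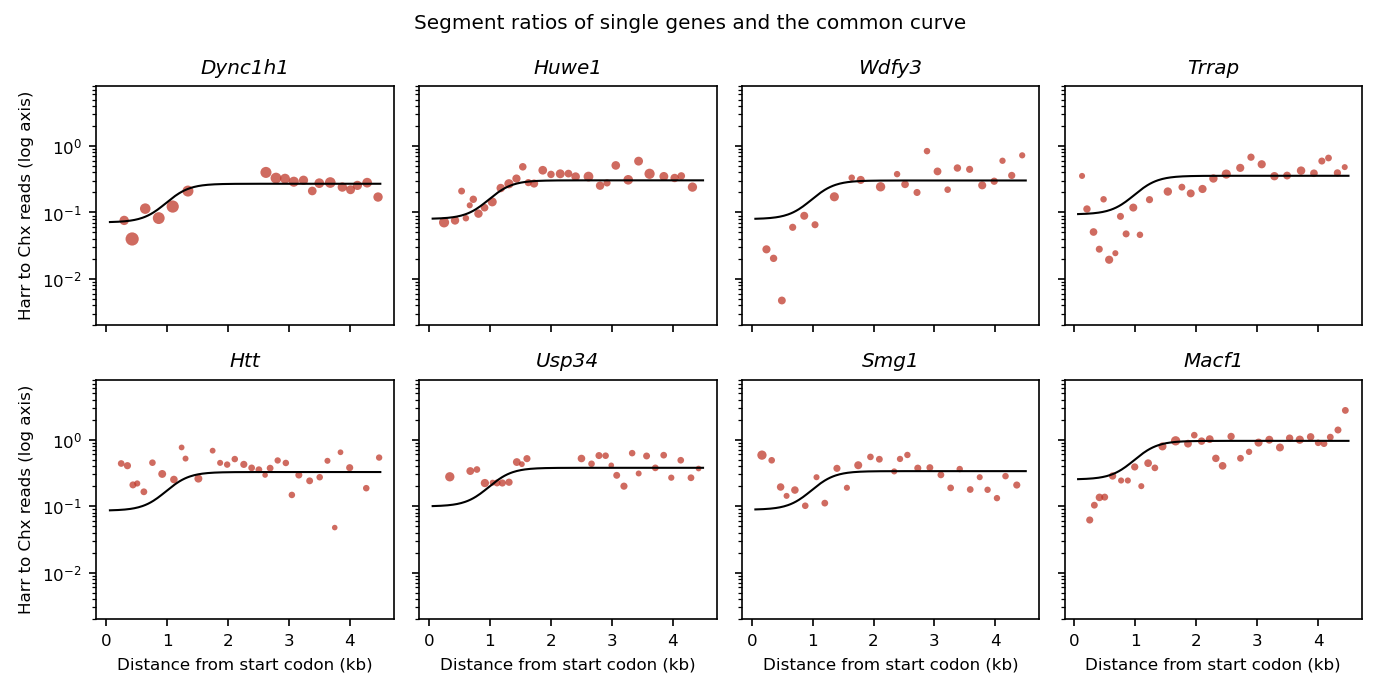
Ratio of Harr to Chx reads by segment (log axis, 0.5 added to each count) against distance from the start codon (kb) for Dync1h1, Huwe1, Wdfy3, Trrap, Htt, Usp34, Smg1 and Macf1. Each point is a segment with at least 10 reads, its area grows with its reads, and the line is the gene's far ratio times the common curve; near the start most Htt and Usp34 points lie above the line and most Wdfy3 and Trrap points beneath it.

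Read as a distance, segments out to the far part gave each gene its own middle of the rise. Of 42 genes fitted with the shape of the common curve, 35 had an interval narrower than 800 nt, with a median of 1170 nt, and in 19 of these the interval held the common value. The shortest were Htt, Map1a and Smg1, all at 100 nt, the lower end of the search, then Usp34 at 210 nt (100 to 430) and Srcap, a chromatin remodeller, at 640 nt (340 to 1010). With WT as the reference Htt moved to 510 nt (240 to 770), and Smg1 stayed at 100 nt. The longest were Mdn1 at 1850 nt (1550 to 2120), Trrap at 1760 nt (1480 to 2040), Ranbp2, a nuclear pore protein, at 1500 nt (1310 to 1690), Wdfy3 at 1420 nt (1230 to 1610) and Macf1 at 1360 nt (1230 to 1480). The near departure of Mdn1 was 1.11-fold (0.746 to 1.65), above the curve. Against WT, Mdn1 and Trrap stood at 1890 and 1970 nt, and Ranbp2 at 1180 nt. In 23 of the 35 genes the distance lay between 900 and 1400 nt, Huwe1 at 1120 nt, Lrp1 at 1130 nt, Dync1h1 at 1270 nt and Reln at 1280 nt among them.

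Of the 5 genes with the most WT reads, Map1a departed most, as given above. Departures in the other 4 and in Huwe1, a ubiquitin ligase, were 0.659-fold (0.573 to 0.757) in Reln, 0.726-fold (0.640 to 0.824) in Dync1h1, 0.919-fold (0.818 to 1.03) in Lrp1, 0.936-fold (0.779 to 1.12) in Huwe1 and 1.26-fold (1.14 to 1.39) in Ank2. With WT as the reference Ank2 turned to 0.885-fold, and Reln moved to 0.880-fold. The counts that follow take in every segment of a gene, also those at the start codon or over 600 nt that the departures leave out. Dync1h1 had 555 Harr, 5129 Chx and 3679 WT reads in its near part and 4561, 16860 and 9035 in its far part, ratios of Harr to Chx of 0.108 and 0.271. Reln gave 352, 4313 and 3077 near and 7188, 25080 and 20748 far, ratios of 0.0816 and 0.287. Huwe1 gave 188, 1401 and 1231 near and 2375, 7916 and 5187 far, ratios of 0.134 and 0.300. Ank2 gave 823, 4448 and 5020 near and 4487, 10257 and 8683 far, ratios of 0.185 and 0.437.

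Bsn and Pclo, bassoon and piccolo, which organise the presynaptic active zone, have coding segments of several kilobases, so they show the front more coarsely. In Bsn, segments 1, 2 and 3 had ratios of Harr to Chx of 0.152, 0.219 and 0.346, from 32, 61 and 240 Harr reads. Segment 5, of 6642 nt, had 866 Harr, 2196 Chx and 1668 WT reads, a ratio of 0.394. In Pclo, segments 1 and 2, up to 1722 nt, had ratios of 0.233 and 0.207, and segments 3 and 4, beyond it, 0.574 and 0.593. WT read density was lower late than early in the CDS of both. Bsn had 735 reads per kb in segment 1 and 115 in segment 7, and Pclo 894 in segment 2 and 325 in segment 7. Harr density rose first, from 149 reads per kb in segment 1 to 269 in segment 3 of Bsn and from 172 to 409 in the same segments of Pclo.

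Beyond 2400 nt, where the curve is flat, giant genes still differed in how many Harr reads they held per Chx read. Over 54 genes the log2 far ratio, per 1000000 CDS reads, had a median of 0.93 and ran from −0.01 in Dmd to 2.36 in Macf1. Macf1 had 2132 Harr and 2219 Chx reads in far segments, a raw ratio of 0.961 where the pooled ratio was 0.340. Bod1l followed at 2.18, from 101 and 119 reads, then Dst at 1.80 and Fat1, an atypical cadherin, at 1.54. With WT as the reference these 4 stood at 1.94, 1.51, 1.48 and 1.52, and Dmd at −0.05. After Dmd the lowest were Dync1h1 at 0.53 and Fras1 at 0.54, and against WT these were 1.16 and 0.95. Across the 54 genes, which share the same 3 libraries, the Spearman rank correlation of the far ratio was −0.161 with CDS length, −0.0746 with GC content and 0.0202 with WT level.

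Dmd, the lowest of these genes, is also 1 of the 5 whose inner start codons are printed above. GENCODE lists 249 other coding transcripts that join one of the giant CDSs, and 25 of the places where they join, in 21 genes, lie at least 1200 nt from the start. At 13 of these the 1200 nt after the join held at least 50 WT reads. At 6 of the 13, in Prune2, Utrn, Syne1, Dmd and, with joins at 17520 and 18002 nt, Syne2, WT density in the 1200 nt after the join was at least 3-fold that in the 1200 nt before it. This set was chosen after the values were seen. The 2 Syne2 joins share 1 rise. WT density was 7.14 reads per kb before 17520 nt and still 8.83 in the stretch before 18002 nt, which takes in the first join. The next largest step in WT was 1.63-fold, in Trio, a guanine exchange factor. In Unc13b, a synaptic vesicle priming factor, the step was 1.14-fold in WT and 2.98-fold in Chx. The stretch before this join held only 18 WT reads. Over the whole CDS, segments 1 to 12, the 9567 nt before the join, held 44 WT reads. Segments 13 to 41, the 3606 nt after it, held 160. Whether Unc13b has a step in WT thus depends on the stretch compared.

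In Prune2, a protein with a BCH domain, WT density rose 20.5-fold at 8247 nt, from 9.14 reads per kb before it. In Utrn, utrophin, the dystrophin relative, it rose 12.3-fold at 7473 nt, from 7.26 to 93.7. In Syne2, nesprin-2, which links nuclei to the cytoskeleton, it rose 11.7-fold at 18002 nt, from 8.83 to 107.6, and in Syne1, nesprin-1, 9.95-fold at 17310 nt, from 10.3 to 105.9. In Dmd it rose 6.75-fold at 9203 nt, from 85.2 to 577.8. The 5 genes were chosen by their step in WT, and density rose there in Chx as well. Chx densities before and after were 7.83 and 201.9 in Prune2, 12.9 and 80.7 in Utrn, 8.83 and 129.9 in Syne2, 17.4 and 151.6 in Syne1, and 76.9 and 675.2 in Dmd.

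**Figure D4:**
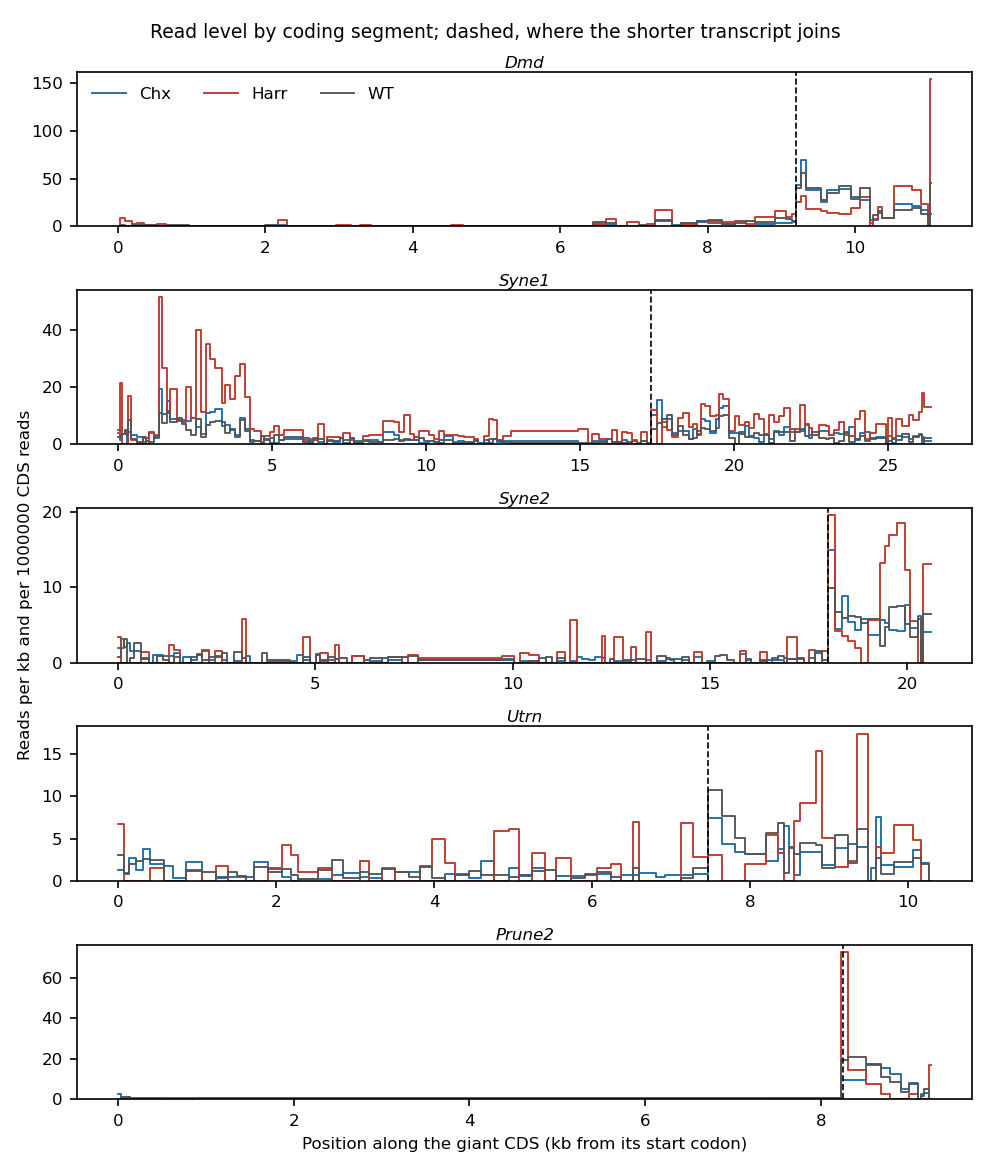
Reads per kb by segment in Chx, Harr and WT, per 1000000 CDS reads of the library, along the CDS (kb from the annotated start codon) of Dmd, Syne1, Syne2, Utrn and Prune2, each panel with its own vertical scale. The dashed line marks where the shorter transcript joins, and levels in Chx and WT climb there. Harr is high in the first segment of Syne2 and Prune2, and in each panel it then lies beneath both other libraries in part of the next 1 kb.

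Harr reads were scarce just after these inner starts, as they were after the annotated starts of other genes. In the 1200 nt after the join the ratio of Harr to Chx was 0.103 (0.0805 to 0.129) in Dmd, 0.108 in Utrn, 0.154 in Syne2, 0.177 in Syne1 and 0.202 (0.141 to 0.282) in Prune2. Pooled over the 5 genes it was 0.133, from 192 Harr and 1446 Chx reads. In the 7 joins without such a step, 1 of them a second join in Syne1, it ran from 0.254 in Ubr4, a ubiquitin ligase, to 1.28 in Macf1, with a median of 0.316. In the giant genes the ranges of the stepped and the other joins did not overlap. Unc13b, at 0.316, was placed with the other joins by the 1200 nt compared, and its WT step depends on that choice. The step that divides them was chosen after the values were seen, so this is no test. Nor were the stretches alike. The shorter transcripts bring at most 144 nt of their own to the stepped joins, but 3270 in Macf1, 2286 in Unc13b and 1293 in Dst. In those genes the stretch thus began farther from the inner start codon. The ratios were also not scaled to each gene's far ratio, 0.961 in Macf1 and 0.649 in Dst against 0.340 pooled. Chx to WT over the same stretches was 1.15 in the stepped genes and 1.26 in the others. In genes with a CDS from 6000 up to 9000 nt, 1 join with enough reads had such a step, 63.7-fold in WT, in the unconventional myosin Myo10, and its ratio of Harr to Chx after the join was 0.0997. The other 15 joins of that class had a median of 0.324, and the lowest, 0.0349, was a second join of Myo10.

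The return of Harr reads could be followed with the inner start codon as the origin. Over the 5 genes together the ratio of Harr to Chx was 0.125 (0.0949 to 0.161) in the first 300 nt, 0.0810 from 300 to 600 nt and 0.0736 from 600 to 900 nt. It was 0.227 from 900 to 1200 nt, 0.347 (0.258 to 0.462) to 1500 nt, 0.420 to 2100 nt and 0.288 to 3000 nt. The common shape, fitted to 119 segments from the inner starts, had the middle of its rise at 1110 nt (960 to 1260), and the common curve from the annotated starts at 1106 nt. Against WT these were 1200 nt (1060 to 1340) and 1165 nt. Without Dmd, which gave the most reads, the ratio was 0.172 in the first 300 nt, 0.0833, 0.0650 and 0.236 in the next 3 bins and 0.458 from 1200 to 1500 nt.

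**Figure D5:**
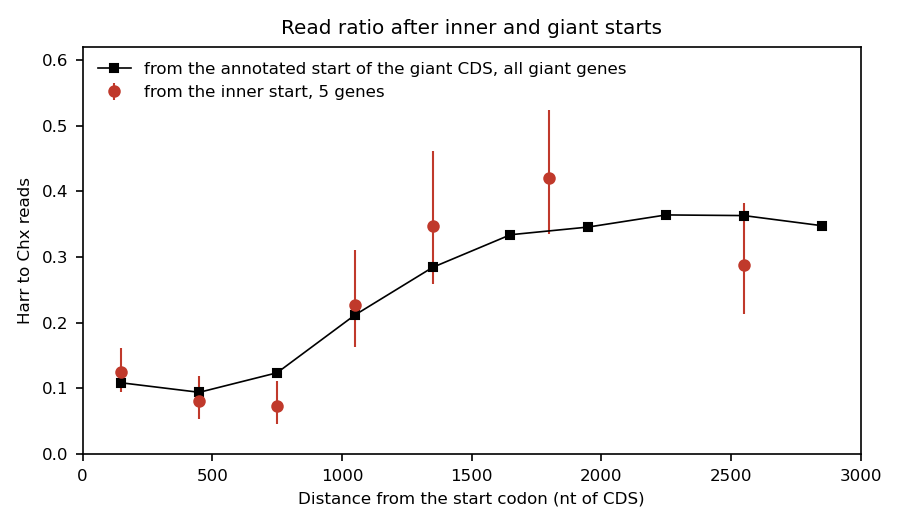
Ratio of Harr to Chx reads against distance from the start codon (nt of CDS), for the inner starts of Dmd, Utrn, Syne1, Syne2 and Prune2 (circles with 95% counting intervals) and the annotated starts of giant genes (squares joined by a line). Both series are low up to 900 nt, 0.0736 from 600 to 900 nt at the inner starts, and both climb beyond it.

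In Dmd the change of regime was sharp. Segments 1 to 62 held 75 Harr, 191 Chx and 201 WT reads over 9203 nt, a ratio of Harr to Chx of 0.393. Segments 63 to 70, the next 999 nt, held 74, 761 and 641 reads, a ratio of 0.0972. Segments 71 to 79, the last 835 nt, held 84, 259 and 197, a ratio of 0.324. Of the 1211 Chx reads of Dmd, 1020 thus lay in its last 1834 nt. Short dystrophin products made from inner promoters are known in brain.

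Prune2 had its Harr reads at the inner start itself. Segment 10, of 80 nt, which holds the start codon, had 22 Harr, 15 Chx and 26 WT reads. Segments 12 to 16 then had 5, 1, 0, 0 and 1 Harr reads beside 60, 32, 33, 9 and 16 in Chx and 50, 19, 19, 5 and 12 in WT. The 8225 nt before it, segments 1 to 9, held only 19, 51 and 61 reads.

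In Syne1 the join was followed by segment 91 (chr10:5193032-5193172), with 0 Harr, 44 Chx and 18 WT reads. In Utrn, segments 52 and 53 had 0 Harr reads beside 14 and 9 in Chx and 20 and 11 in WT. In Syne2, segments 99 to 104 had 12, 3, 2, 2, 1 and 0 Harr reads beside 49, 17, 27, 20, 12 and 23 in Chx, and segments 108 and 109 had 13 and 14 beside 18 and 17. The annotated shorter CDS of Syne2 covers only 376 nt, so the reads past it follow the long CDS.

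Syne1 also had a separate block of reads near its front, described here after its values were seen. Segments 13 to 31, from 1320 nt, held 242 Harr, 518 Chx and 327 WT reads over 2954 nt, or 111 WT reads per kb. Segments 1 to 12 held 43.9 WT reads per kb and segments 32 to 89 held 18.3. In this block the ratio of Harr to Chx was 0.467, and in segments 32 to 89 it was 0.538. The same segments were thus high in all 3 libraries.

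Other giant CDSs contained thinly read stretches inside well-read genes. Among 44 genes with at least 1000 WT reads, 18 segments of 8 genes had under 10% of the WT reads expected from the gene's mean density. At least 20 had to be expected. These are single cases, without a share of the segments looked at or a count for shorter CDSs, so they give no trait of giant CDSs. The longest was segment 36 of Macf1 (chr4:123471007-123476337, minus strand), of 5331 nt, with 38 WT, 38 Chx and 14 Harr reads where 927 WT reads correspond to the mean. With segments 37 to 40, which held 8, 7 and 3 reads, it separated segments 1 to 35, at 373 WT reads per kb, from segments 41 to 98, at 182. Both outer parts of Macf1 had high ratios of Harr to Chx, 0.673 and 1.01.

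In Trio the thin stretch lay at the end. Segments 49 to 57, the last 1668 nt, held 32 WT, 17 Chx and 19 Harr reads, and segments 1 to 48 held 1940, 2614 and 674, that is 19.2 against 254 WT reads per kb. In Map1a it lay at the front, where segments 1, 2 and 4 had 35, 10 and 22 WT reads and 8.03, 5.36 and 8.52% of the mean density. The others were Ank2 segments 1, 7 and 35 and Dmxl2 segment 34, of 63 nt or less and with 0 reads in all libraries, Dmd segments 20 and 23, Bod1l segment 26, with 0 reads, and Huwe1 segment 49, with 12 Chx, 0 Harr and 2 WT reads.

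Single far segments rarely stood out from their own gene. Each segment beyond 2400 nt was set against the other far segments of the same gene, and called where its ratio of Harr to Chx was at least 2-fold off with an interval that excluded 1. Of 1720 segments in 66 genes, 67 (3.90%) were high and 48 (2.79%) were low. In genes with a CDS from 6000 up to 9000 nt these shares were 4.01% and 3.01% of 2293, and the giant shares lay near them. Chx to WT gave 45 high and 48 low among 1908. Of the 67 high segments 16, and of the 48 low ones 11, were also called with WT as the reference. In Chx to WT, 9 of the high and 6 of the low segments were called in the opposite direction. For these the Chx reads themselves were off from WT.

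The highest was segment 10 of Prune2, already described, at a log2 departure of 3.78. Segment 8 of Frem2 (chr3:53549584-53549793), an extracellular matrix protein, had 18 Harr, 11 Chx and 20 WT reads, a departure of 2.04. Segment 106 of Ubr4 followed at 2.01, and segment 59 of Dmd (chrX:84818027-84818295) at 2.01, with 10, 14 and 18 reads. Segment 63 of Smg1 stood at 1.87, with 11, 9 and 5 reads. Segment 69 of Herc2 (chr7:56197056-56197209), a ubiquitin ligase, stood at 1.77, with 26, 25 and 40 reads. Segment 29 of Syne1 (chr10:5343358-5343522) stood at 1.76, with 15, 11 and 7 reads, and segment 51 of Dmd (chrX:84474134-84474366) at 1.72, with 15, 26 and 26. With WT as the reference these 8, in the same order, stood at 2.90, 0.76, 0.19, 1.42, 1.83, 0.40, 1.77 and 1.48. The Ubr4, Herc2 and Frem2 segments were thus under 2-fold against WT. Both Dmd segments lie before the inner start, so the far level they are set against is mostly that of the reads after it.

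The lowest were segment 91 of Syne1, at −5.22 with 0 Harr reads, and segment 35 of Dmxl1, a V-ATPase regulator, at −4.12, with 0 Harr, 22 Chx and 12 WT reads. With 0 reads such values depend on the 0.5 added to each count. Segment 43 of Csmd2 (chr4:128496021-128496198), a protein with CUB and sushi domains, had 1 Harr, 27 Chx and 12 WT reads, at −2.89. Segment 35 of Usp34 (chr11:23414736-23414818) had 1, 26 and 15, at −2.77, and segment 41 of Vps13a (chr19:16681870-16682226) had 1, 21 and 4, at −2.43. With WT as the reference these 5, in the same order, stood at −4.54, −3.74, −2.18, −2.57 and −0.63. The Vps13a segment was thus under 2-fold against WT. By gene, Dmd had the most low segments, 4, all of them among segments 64 to 68, just after its inner start.

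Last coding segments were often high in Harr when Chx was the reference. Of 37 tested, 8 (21.6%) were high and 0 low in Harr to Chx, against 22 of 78 (28.2%) high in genes with a CDS from 6000 up to 9000 nt. In Harr to WT 0 of 41 were high and 3 (7.32%) low, and in Chx to WT 13 of 43 were low. Over 45 genes the median log2 departure of the last segment was 0.38 for Harr to Chx, −0.25 for Harr to WT and −0.63 for Chx to WT. In Reln the last segment (chr5:21885473-21885569, minus strand, 97 nt) held 284 Harr, 455 Chx and 652 WT reads, and in Ubr4 (chr4:139489167-139489231, plus strand, 65 nt) 32, 27 and 57. Their sequences, with the stop codon in capitals, are the following.
Reln: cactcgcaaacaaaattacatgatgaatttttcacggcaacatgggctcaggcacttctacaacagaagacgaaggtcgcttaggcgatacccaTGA
Ubr4: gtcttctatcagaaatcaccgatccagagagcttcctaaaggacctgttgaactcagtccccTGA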

How the data were processed

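Ribosome footprints of primary mouse cortical neurons were sequenced in 3 libraries (Chx, Harr and WT), grouped by the treatment recorded for each sample, and the sample descriptions, which name fractions of another experiment, were not used. The authors deposited, for each library, tables of whole-number counts per segment of the 5′ UTR, CDS and 3′ UTR, written by Plastid. Per the file headers, reads of 25 to 100 nt were counted at their 5′ end with an offset of 0, on the mm10 build, from alignments stripped of ribosomal and duplicate reads. The aligner of these files is not given in the sources used here. This counting assigns start-codon ribosomes to the 5′ UTR. The deposited length column gave the CDS lengths, and the deposited coverage signal and RPKM columns were not used. Header totals were 35722483 (Chx), 9754412 (Harr) and 30219197 (WT) reads, so Harr is the least precise.

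Transcripts were joined to GENCODE M21 (99.4% of identifiers matched), and the longest transcript with rows in all 3 regions stood for each gene. Segments over 600 nt, or beginning within 60 nt of the start codon, were not placed. Genes entered a near departure with at least 100 near Chx and 100 far Harr reads, and segments a far comparison with at least 20 reads in both libraries together. Intervals of shares were Wilson, those of ratios exact binomial or, for departures, normal on the log scale with 0.5 added to each count. The scripts (Python 3.11.15, numpy 2.4.6, pandas 2.3.3, scipy 1.17.1) were tested on simulated data. The members and lists were chosen with earlier results of these data known.

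The genes named were the 5 with the most WT reads, the 5 highest and 5 lowest whole-CDS ratios, near departures and run-off distances, every called gene, the 8 highest and 5 lowest far segments, 8 genes chosen by name, and the genes at the 9000 nt border. Of the 8 chosen by name, Ank3 was not among the giant genes and is not described. Alternatives changed the reference library, segment lengths, read minimum, fold called, length limit, scaling, start and far bounds and interval width, or left out the 5 genes with the most reads. Leaving out the top near segment, the last segments and the 5 genes with an inner start was added after seeing the data. There is 1 library per treatment, so no test was made.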

Additional observations from a re-analysis of the deposited data

How the results depend on the processing

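No paired analysis was possible because each treatment has 1 library. The counting error is the only error these data give, and Harr, with the fewest reads, sets it. Both near to far ratios and the median whole-CDS log2 ratio kept their direction under every alternative. The run-off distance and the counts of called genes and segments have no direction that could change. The common run-off distance of 1106 nt was 1165 nt with WT as the reference, 1155 nt without the 5 genes with the most reads and 1160 nt with segments from the start codon on. A far part from 3600 nt on does not enter that fit. The near to far ratio of Harr to Chx, 0.395, was 0.337 with WT, 0.339 for CDSs of at least 12000 nt, 0.370 as a median over genes and 0.432 from the start codon. That of Chx to WT, 0.854, was 0.878 with all segment lengths, 0.879 without the 5 genes, 0.872 from 12000 nt and 0.878 from the start codon. The 4 near departures became 2 with WT, 0 from 12000 nt, 12 at 1.5-fold and 2 without each gene's top near segment. The 67 high far segments became 44 with WT, 35 from 12000 nt, 118 at 1.5-fold, 24 at the doubled read minimum and 43 with widened intervals. The 48 low ones became 25 from 12000 nt, 75 at 1.5-fold, 29 at the doubled minimum and 10 with widened intervals. The median whole-CDS log2 ratio, 0.85, was 0.98 with WT and 0.30 per aligned read. The cause was not tested. The other 55 values stayed within 1.5 times the count or within the counting interval.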
